A study of Homo sapiens with 4 samples.

Results

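The expression of 50 hypoxia-responsive and glycolytic genes was followed in Caco-2 cells given IFNγ for 3 h. The genes were taken by symbol from a list of targets of the hypoxia-inducible factor (HIF) pathway and enzymes of glycolysis, and all 50 had a row among the 37515 genes counted. All 50 also passed the filter on low counts, which left 14820 genes to test. Caco-2 is a human colorectal carcinoma line that serves as a model of the intestinal epithelium. The cells stood on transwells for 15 days, and all 4 libraries are labelled wild type. Of these 2 were made of unstimulated cells (0 h) and 2 of cells that received 60 ng/ml IFNγ in the basal compartment for 3 h. The comparison therefore holds both the cytokine and the elapsed time, which cannot be told apart. The labels do not say that the libraries of a group came from separate cultures, so p-values measure a spread between libraries that may be technical.

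HIF is a dimer of an oxygen-regulated alpha subunit, HIF1A or EPAS1, and the stable partner ARNT. In the presence of oxygen the prolyl hydroxylases (EGLN1, EGLN2 and EGLN3) mark the alpha subunit for the ubiquitin ligase that VHL recognizes, and HIF1AN blocks its transactivation. When oxygen falls, the dimer binds a short core motif and induces glucose transporters, glycolytic enzymes, angiogenic factors and a set of regulators that include histone demethylases. The intestinal epithelium lies at the border of the nearly anoxic lumen and is known for its low resting oxygen.

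The 4 libraries held 7171455 to 10365346 counts, so that a level of 1 CPM (counts per 1000000 counts of the scaled library) stood for 7.14 to 10.3 counts. As a check of the labels, 8 of 9 tested genes of a list of IFNγ-induced genes rose, and for IRF1 the log2 fold change was 5.86 (adjusted p = 7.43e-06). Of 14 epithelial markers 13 were tested, and their summed level was 8459 to 8781 CPM in unstimulated and 9968 to 10607 CPM in IFNγ libraries. Of these markers KRT8, KRT18, CDX2 and ALPI rose (CDX2 by 1.20 on the log2 scale, adjusted p = 0.00117). SI, the sucrase of the brush border, fell by 1.13 (adjusted p = 0.0256), but did not pass with DESeq2 (adjusted p = 0.0546). With the trend of GC content and length removed neither SI (-0.66, adjusted p = 0.0961) nor ALPI (0.17, adjusted p = 0.364) passed. The part of these shifts in the results below was not tested. Of 11 markers of leukocytes, fibroblasts and endothelium 10 had a row, 7 of which had at most 10 counts in any library. The summed level of these markers, most of it COL1A1, was 96.1 to 186 CPM in unstimulated and 130 to 177 CPM in IFNγ libraries. In bulk RNA, fewer cells of a type and less RNA per cell cannot be told apart.

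The comparison asks which genes of the pathway fell, rose or held after 3 h of IFNγ. The regulatory targets ANKRD37, KDM3A, RORA and MXI1 fell 3.55- to 12.1-fold, whereas 1 of 14 glycolytic enzymes, HK2, fell and 3 rose slightly. A gene passed when its adjusted p-value in edgeR's quasi-likelihood test was under 0.05. Of the 50 genes 15 passed lower, against 11% of all tested genes, and 7 passed higher, against 9.02%. With a fold change above 2 required as well, 9 genes passed lower, against 4.4% of all tested genes, and 0 passed higher, against 2.88% (also 0 at an unadjusted p under 0.05 and 0 with DESeq2). The count of 7 was 2 without the first unstimulated library and 2 without the second IFNγ library. The remaining 28 genes did not pass in either direction.

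The median log2 fold change was 0.28 over the 14 glycolytic enzymes, -0.42 over the 22 regulatory targets and -0.01 over all tested genes. Of the enzymes 3 passed higher (ENO1, ALDOA and PFKP) and 1 passed lower (HK2), and 12 of 14 had a positive log2 fold change. Of the regulatory targets 9 passed lower and 1, LOX, passed higher, and 17 of 22 had a negative log2 fold change. With the trend of GC content and length removed the median was 0.09 over the enzymes and -0.59 over the regulatory targets. In the main fit it was -0.23 over the 9 regulatory targets whose exons overlap no other annotated gene. The difference between both groups of genes was not tested, since the genes were listed with earlier results of these data known.

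**Figure D1:**
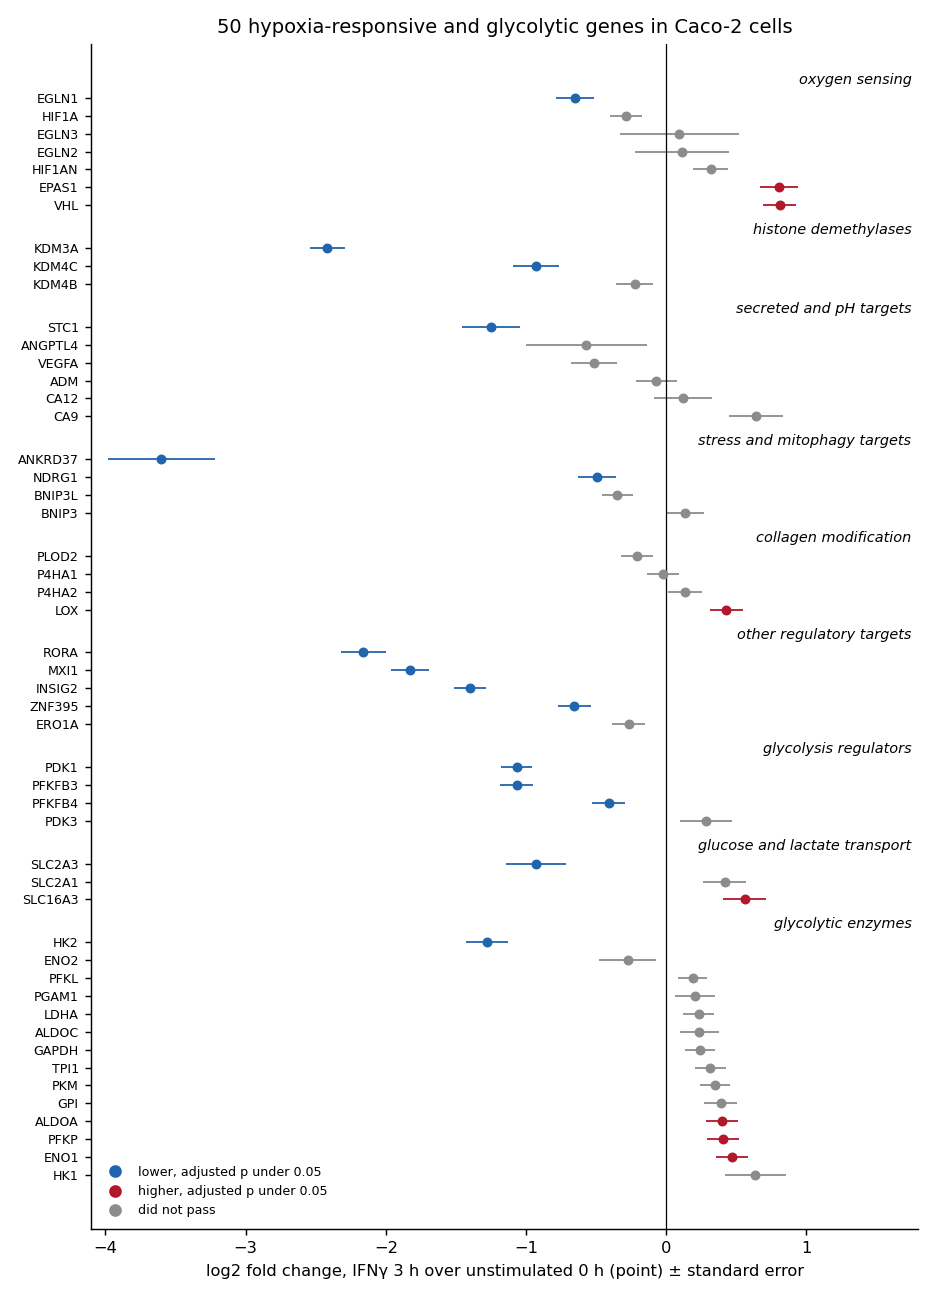
Log2 fold change (x axis, IFNγ 3 h over unstimulated 0 h) of each of the 50 genes, grouped by role and ordered by value within a role. Points are estimates of edgeR's quasi-likelihood fit, bars are ± 1 standard error, and color marks the 15 genes that passed lower and the 7 that passed higher. ANKRD37 (-3.60) and KDM3A (-2.42) lie farthest to the left, and the glycolytic enzymes other than HK2 and ENO2 lie to the right of 0.

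The promoters of 3 genes that fell more than 2-fold and of the enzyme with the largest rise that passed are printed here to show where the HIF core motif stands in them. Each run holds 250 bases before and 50 bases after a start site in RefSeq's annotation of GRCh38.p14, read 5′ to 3′ on the strand of the gene. ANKRD37 lies at chr4:185396591-185396890 on the plus strand. KDM3A lies at chr2:86441121-86441420 on the plus strand, the first listed of 2 starts. HK2 lies at chr2:74833877-74834176 on the plus strand, also the first of 2 starts. ENO1 lies at chr1:8878637-8878936 on the minus strand. Capitals mark the core, searched as ACGTG or GCGTG on both strands, so that a core on the opposite strand reads CACGT or CACGC.

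ANKRD37: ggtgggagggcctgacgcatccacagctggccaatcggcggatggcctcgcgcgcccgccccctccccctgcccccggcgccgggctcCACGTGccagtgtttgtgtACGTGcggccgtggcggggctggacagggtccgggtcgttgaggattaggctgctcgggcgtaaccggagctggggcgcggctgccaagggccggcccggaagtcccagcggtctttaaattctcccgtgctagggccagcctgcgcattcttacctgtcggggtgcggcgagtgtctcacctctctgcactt

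KDM3A: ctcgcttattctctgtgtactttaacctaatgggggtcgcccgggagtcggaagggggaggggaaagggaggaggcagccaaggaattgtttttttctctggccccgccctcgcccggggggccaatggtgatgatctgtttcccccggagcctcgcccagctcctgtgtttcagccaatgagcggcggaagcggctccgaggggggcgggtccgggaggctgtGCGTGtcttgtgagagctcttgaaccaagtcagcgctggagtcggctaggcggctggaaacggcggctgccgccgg

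HK2: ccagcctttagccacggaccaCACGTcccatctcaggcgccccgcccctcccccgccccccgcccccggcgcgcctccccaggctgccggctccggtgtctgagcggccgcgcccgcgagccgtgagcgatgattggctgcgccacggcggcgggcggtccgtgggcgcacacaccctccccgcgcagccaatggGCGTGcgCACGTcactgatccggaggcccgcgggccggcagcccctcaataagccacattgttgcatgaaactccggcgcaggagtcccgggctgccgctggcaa

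ENO1: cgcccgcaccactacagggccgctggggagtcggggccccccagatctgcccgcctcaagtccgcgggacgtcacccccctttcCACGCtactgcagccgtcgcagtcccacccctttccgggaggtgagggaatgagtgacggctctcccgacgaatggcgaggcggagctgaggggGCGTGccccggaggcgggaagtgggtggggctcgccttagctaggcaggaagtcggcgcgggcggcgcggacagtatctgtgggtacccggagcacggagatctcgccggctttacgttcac

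The ANKRD37 window held 3 matches to ACGTG, of which 2 overlap on opposite strands in CACGTG. The HK2 window held 2 matches to ACGTG and 1 to GCGTG. The windows of KDM3A and ENO1 held only GCGTG, with 1 and 2 matches. Of the 50 genes 43 were in the promoter table, with 71 start sites, and 73.2% of those windows held at least 1 core. The share was 48.4% of all 35116 windows in the table and 59.9% of the 15233 windows of tested genes. By outcome it was 83.3% of 18 windows of genes that passed lower and 76.5% of 17 windows of genes that passed higher. Of 36 windows of genes that did not pass it was 66.7%. Counted by gene, a core stood in at least 1 window of 10 of 11 genes that passed lower. The same held for 6 of 6 that passed higher and 22 of 26 that did not pass. SLC2A3, STC1, NDRG1 and ZNF395, which passed lower, and VHL, which passed higher, had no listed window. Windows of 1 gene can overlap, and the genes' windows had a median GC content of 68%. It was 58.7% for all windows and 64.7% for the windows of tested genes. The letters are a description and do not show that HIF was bound.

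Among the genes of HIF and oxygen sensing the mRNAs of the alpha subunits had different values. HIF1A, the ubiquitous alpha subunit, stood at 77.6 and 75.5 CPM in unstimulated and 61.8 and 63.9 CPM in IFNγ libraries. Its log2 fold change of -0.29 ± 0.12 (SE, n = 2 per group, as for all standard errors given here) did not pass (adjusted p = 0.126). With the trend of GC content and length removed the log2 fold change of HIF1A was 0.055 (adjusted p = 0.792). EPAS1, which encodes HIF-2α, stood at 47.8 and 41.6 CPM in unstimulated and 74.1 and 82.8 CPM in IFNγ libraries. EPAS1 rose, with a log2 fold change of 0.81 ± 0.14 (adjusted p = 0.0077). Per kilobase of canonical transcript, HIF1A made up 68.0% and 70.3% of the sum of both subunits in unstimulated libraries. In the IFNγ libraries its share was 52.1% and 50.2%. The trend of GC content and length was not removed from these shares, and with it removed EPAS1 rose by 0.66 (adjusted p = 0.0115). For ARNT, the shared partner, the log2 fold change was -0.10 (adjusted p = 0.631).

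Of the genes that turn the alpha subunit over, VHL rose and EGLN1 fell. VHL, the recognition subunit of the ligase, stood at 56.3 and 54.9 CPM in unstimulated and 93.9 and 101 CPM in IFNγ libraries, a rise of 0.81 ± 0.12 on the log2 scale (adjusted p = 0.00481). EGLN1, the main oxygen-sensing prolyl hydroxylase, stood at 131 and 141 CPM in unstimulated and 78.2 and 95.1 CPM in IFNγ libraries. EGLN1 fell by 0.65 ± 0.13 on the log2 scale (adjusted p = 0.0159). EGLN2 stood at 15.5 and 7.99 CPM in unstimulated and 15.4 and 10.2 CPM in IFNγ libraries (log2 fold change 0.11, adjusted p = 0.837). EGLN3 stood at 2.14 and 2.24 CPM in unstimulated and 1.65 and 3.14 CPM in IFNγ libraries (log2 fold change 0.09, adjusted p = 0.898). The groups overlapped for EGLN2 and EGLN3. HIF1AN, the asparagine hydroxylase that inhibits HIF, stood at 121 and 106 CPM in unstimulated and 149 and 134 CPM in IFNγ libraries, and did not pass (log2 fold change 0.32, adjusted p = 0.115). With the trend of GC content and length removed from each library HIF1AN did pass (0.53, adjusted p = 0.0128). By these counts EGLN1 remained the most abundant of the 3 prolyl hydroxylases per kilobase, with 78.7% and 87.5% of their sum in unstimulated and 69.5% and 78.4% in IFNγ libraries. Exons of EGLN2 overlap 2 other genes on its own strand, among them RAB4B-EGLN2, and those of EGLN1 overlap 1. The level of EGLN2 and these shares are therefore uncertain.

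The histone demethylases, which need oxygen to remove methyl groups from lysines, held the fall with the smallest p-value of the 50 genes. KDM3A, a histone H3 lysine 9 demethylase, stood at 377 and 356 CPM in unstimulated and 72.6 and 64.5 CPM in IFNγ libraries. The libraries of each group lay close together and the groups far apart. KDM3A fell 5.34-fold, with a log2 fold change of -2.42 ± 0.12 (adjusted p = 0.000142). KDM4C, another lysine 9 demethylase, stood at 38.3 and 36.6 CPM in unstimulated and 21.7 and 17.5 CPM in IFNγ libraries, and fell by 0.93 ± 0.16 on the log2 scale (adjusted p = 0.00858). KDM4B had a log2 fold change of -0.23 and did not pass (adjusted p = 0.265), but passed lower with the trend of GC content and length removed (-0.47, adjusted p = 0.0282).

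The stress and mitophagy targets held the largest fold change. ANKRD37, an ankyrin repeat protein known as a HIF target, stood at 15.3 and 13.0 CPM in unstimulated and 0.681 and 1.77 CPM in IFNγ libraries. These levels rest on 157 and 93 counts in unstimulated but on 7 and 13 counts in IFNγ libraries. ANKRD37 fell 12.1-fold, with a log2 fold change of -3.60 ± 0.38 (adjusted p = 0.00181). Its log2 fold change ranged from -4.38 to -3.00 as 1 library was left out in turn, and its exons overlap UFSP2 on the opposite strand. NDRG1, a gene of stress response and differentiation, stood at 3398 and 2829 CPM in unstimulated and 2054 and 2369 CPM in IFNγ libraries. NDRG1 fell by 0.49 ± 0.13 on the log2 scale (adjusted p = 0.039). Without the first unstimulated library its log2 fold change was -0.36 (adjusted p = 0.171), and without the first IFNγ library it was -0.41 (adjusted p = 0.103). NDRG1 passed with DESeq2 (adjusted p = 0.00705) and with the trend of GC content and length removed (-0.76, adjusted p = 0.0051). The mitophagy receptors BNIP3 (log2 fold change 0.14, adjusted p = 0.523) and BNIP3L (-0.35, adjusted p = 0.0662) did not pass.

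Of 5 other regulatory targets 4 fell. RORA, a nuclear receptor that acts in the circadian clock, stood at 44.0 and 39.1 CPM in unstimulated and 8.95 and 9.69 CPM in IFNγ libraries, a log2 fold change of -2.16 ± 0.16 (adjusted p = 0.000633). MXI1, an antagonist of MYC, stood at 71.8 and 73.6 CPM in unstimulated and 19.5 and 21.6 CPM in IFNγ libraries, a log2 fold change of -1.83 ± 0.14 (adjusted p = 0.000633). INSIG2, which holds back sterol synthesis, stood at 153 and 156 CPM in unstimulated and 59.5 and 57.3 CPM in IFNγ libraries, a log2 fold change of -1.40 ± 0.11 (adjusted p = 0.000859). All 3 fell more than 2-fold. ZNF395, a zinc finger protein, stood at 204 and 199 CPM in unstimulated and 120 and 136 CPM in IFNγ libraries, and fell by 0.66 ± 0.12 on the log2 scale (adjusted p = 0.0094). ERO1A, the oxidase that forms disulfide bonds in the endoplasmic reticulum, did not pass (log2 fold change -0.27, adjusted p = 0.154). RORA and INSIG2 are poor in GC, and with the trend of GC content and length removed from each library their log2 fold changes were -1.45 and -0.88.

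**Figure D2:**
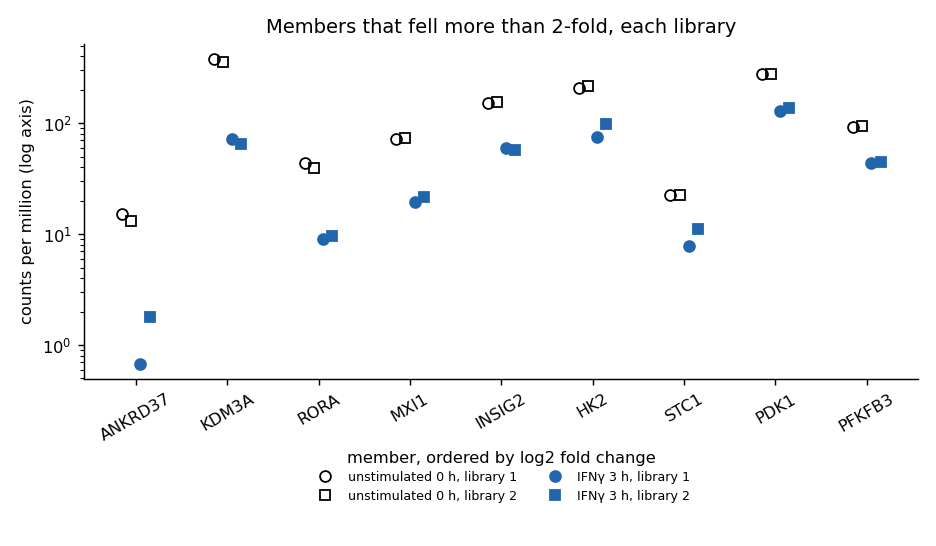
CPM (y axis, log scale) of the 9 genes that passed with a fold change above 2, all of them lower, in each of the 4 libraries. Open symbols are unstimulated and filled symbols IFNγ libraries; circles are library 1 and squares library 2. In every gene both filled symbols lie below both open ones, as is likely for genes chosen by a fold change above 2.

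Of the 6 secreted and pH-regulating targets only STC1 passed. STC1, a secreted glycoprotein, stood at 22.4 and 22.6 CPM in unstimulated and 7.88 and 11.2 CPM in IFNγ libraries. STC1 fell by 1.25 ± 0.21 on the log2 scale (adjusted p = 0.00715). VEGFA, the principal angiogenic factor, did not pass (log2 fold change -0.51, adjusted p = 0.0673). VEGFA did pass without the second unstimulated library (-0.67, adjusted p = 0.0154), without the first IFNγ library (-0.69, adjusted p = 0.0272) with DESeq2 (adjusted p = 0.0276) and with the trend of GC content and length removed (-0.71, adjusted p = 0.0221). Without the first unstimulated library its log2 fold change was -0.32 (adjusted p = 0.298), and without the second IFNγ library -0.39 (adjusted p = 0.121). The peptide hormone ADM (-0.07, adjusted p = 0.763) and the lipase inhibitor ANGPTL4 (-0.57, adjusted p = 0.389) did not pass, and ANGPTL4 lay under 2 CPM in all libraries. The carbonic anhydrase CA12 did not pass either (0.12, adjusted p = 0.713). CA9, another carbonic anhydrase and a common marker of hypoxia, stood at 0.64 (adjusted p = 0.0526), which was 0.84 without the second unstimulated library (adjusted p = 0.0305).

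Of the 4 collagen-modifying enzymes 1 rose and 3 did not pass. LOX, which crosslinks collagen and elastin, stood at 281 and 272 CPM in unstimulated and 345 and 401 CPM in IFNγ libraries, and was the only regulatory target that passed higher (log2 fold change 0.43 ± 0.12, adjusted p = 0.0431). The call was lost without the first unstimulated library (0.45, adjusted p = 0.116), the second unstimulated library (0.42, adjusted p = 0.105) or the second IFNγ library (0.30, adjusted p = 0.26). LOX passed with DESeq2 (adjusted p = 0.0245) and with the trend of GC content and length removed (0.80, adjusted p = 0.00536). The prolyl hydroxylases of collagen P4HA1 (log2 fold change -0.02, adjusted p = 0.914) and P4HA2 (0.13, adjusted p = 0.476) and the lysyl hydroxylase PLOD2 (-0.21, adjusted p = 0.234) did not pass.

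Of the 4 regulators that set the flux through glycolysis and into the mitochondria 3 fell. PFKFB3, which makes the activator of phosphofructokinase, stood at 91.6 and 93.6 CPM in unstimulated and 43.7 and 44.8 CPM in IFNγ libraries. PFKFB3 fell by 1.07 ± 0.12 on the log2 scale (adjusted p = 0.00211). PFKFB4, an isoenzyme of it, stood at 265 and 232 CPM in unstimulated and 182 and 193 CPM in IFNγ libraries, a log2 fold change of -0.41 ± 0.12 (adjusted p = 0.0491). The call for PFKFB4 was lost without the first unstimulated library (-0.31, adjusted p = 0.229), the second unstimulated library (-0.49, adjusted p = 0.0501) or the first IFNγ library (-0.38, adjusted p = 0.139). PFKFB4 passed with DESeq2 (adjusted p = 0.0348) and with the trend of GC content and length removed (-0.67, adjusted p = 0.00506). PDK1, a kinase that shuts pyruvate dehydrogenase, stood at 278 and 277 CPM in unstimulated and 129 and 136 CPM in IFNγ libraries. PDK1 fell by 1.07 ± 0.11 on the log2 scale (adjusted p = 0.00161), and by 0.49 with the trend of GC content and length removed (adjusted p = 0.0522). PDK3 had a log2 fold change of 0.28 and did not pass (adjusted p = 0.322). PDK1 made up 70.3% and 72.1% of the 4 kinases per kilobase in unstimulated and 47.4% and 49.3% in IFNγ libraries.

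Of the 3 transporters of glucose and lactate 1 fell and 1 rose. SLC2A3, the high-affinity glucose transporter GLUT3, stood at 964 and 980 CPM in unstimulated and 388 and 634 CPM in IFNγ libraries. SLC2A3 fell by 0.93 ± 0.21 on the log2 scale (adjusted p = 0.0223), with a wide gap between both IFNγ libraries. SLC2A1, the basal glucose transporter GLUT1, had a log2 fold change of 0.42 and did not pass (adjusted p = 0.095), but passed without the first IFNγ library (0.60, adjusted p = 0.0131). Per kilobase, SLC2A3 made up 55.5% and 53.3% of the sum of SLC2A1, SLC2A2 and SLC2A3 in unstimulated and 29.5% and 34.0% in IFNγ libraries. SLC16A3, the lactate exporter MCT4, stood at 21.0 and 24.9 CPM in unstimulated and 33.9 and 33.6 CPM in IFNγ libraries, a log2 fold change of 0.56 ± 0.15 (adjusted p = 0.0406). SLC16A3 no longer passed with DESeq2 (adjusted p = 0.0885) or with the trend of GC content and length removed (0.25, adjusted p = 0.334). The call was also lost without the first unstimulated library (0.43, adjusted p = 0.213), the first IFNγ library (0.54, adjusted p = 0.082) or the second IFNγ library (0.55, adjusted p = 0.054).

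Among the glycolytic enzymes HK2 alone passed lower. HK2, the inducible hexokinase at the entry of the pathway, stood at 207 and 214 CPM in unstimulated and 75.4 and 98.4 CPM in IFNγ libraries. HK2 fell by 1.28 ± 0.15 on the log2 scale (adjusted p = 0.00245). Per kilobase, HK2 held 30.6% and 30.9% of the sum of HK1, HK2 and HKDC1 in unstimulated and 11.4% and 14.8% in IFNγ libraries. HKDC1, a hexokinase outside the 50 genes, held 67.7% and 66.9% in unstimulated and 85.6% and 82.0% in IFNγ libraries. The sum of the 3 was 120 and 123 CPM per kilobase in unstimulated and 117 and 118 in IFNγ libraries. HKDC1 itself did not pass (log2 fold change 0.27, adjusted p = 0.112), nor did HK1 (0.64, adjusted p = 0.0789).

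Of the enzymes that follow, 3 rose by 1.32- to 1.39-fold. ENO1, the main enolase, stood at 2891 and 3085 CPM in unstimulated and 3866 and 4416 CPM in IFNγ libraries, a log2 fold change of 0.47 ± 0.11 (adjusted p = 0.0275). ALDOA, the main aldolase, stood at 3132 and 3268 CPM in unstimulated and 3931 and 4516 CPM in IFNγ libraries, a log2 fold change of 0.40 ± 0.11 (adjusted p = 0.0462). PFKP, the platelet type of phosphofructokinase, stood at 270 and 261 CPM in unstimulated and 331 and 371 CPM in IFNγ libraries, a log2 fold change of 0.40 ± 0.11 (adjusted p = 0.0441). In all 3 the second IFNγ library was the highest. With the trend of GC content and length removed none of the 3 passed, at 0.24 for ENO1 (adjusted p = 0.154), 0.14 for ALDOA (adjusted p = 0.422) and 0.12 for PFKP (adjusted p = 0.447). Without the first unstimulated library the adjusted p was 0.115 for ENO1, 0.168 for ALDOA and 0.123 for PFKP, and without the second IFNγ library it was 0.114, 0.255 and 0.25. Without the second unstimulated library it was 0.0688 for ALDOA and 0.121 for PFKP.

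The other enzymes did not pass in either direction in the main fit. They were GPI (log2 fold change 0.39, adjusted p = 0.0535), PKM (0.35, 0.0564), TPI1 (0.32, 0.082), GAPDH (0.24, 0.153), ALDOC (0.24, 0.267), LDHA (0.23, 0.179), PGAM1 (0.20, 0.351), PFKL (0.19, 0.23) and ENO2 (-0.28, 0.368), besides HK1. GPI passed without the first IFNγ library (0.48, adjusted p = 0.0329) and with DESeq2 (adjusted p = 0.0297), PKM with DESeq2 (adjusted p = 0.0392), and LDHA with the trend of GC content and length removed (0.39, adjusted p = 0.0301). With a replicate block, which pairs libraries by number, GPI, PKM, TPI1, GAPDH, LDHA, HK1, PFKL and ALDOC passed higher (adjusted p = 0.00141 to 0.045). ENO1, ALDOA and PFKP passed higher in that fit as well, and PGAM1 and ENO2 did not pass. The labels do not say that same-numbered libraries belong together. The groups overlapped for ENO2, the neuronal enolase, and nearly met for ALDOC (252.46 CPM in an unstimulated and 252.51 CPM in an IFNγ library). The share of all tested genes without overlap was not counted, so its absence in the other enzymes is not read as a rise. Per kilobase the most abundant enzyme in unstimulated cells was GAPDH, at a mean of 3034 CPM, followed by ALDOA (1951), ENO1 (1678) and LDHA (1424), and HK1 was the least abundant at 2.34. GAPDH has 46 pseudogenes named after it in the count table, which together hold up to 7.81% of its own counts. TPI1 has 4 with up to 9.97% and LDHA has 6 with up to 5.45%, so that reads may be split between gene and pseudogenes. PGAM1, with 9 pseudogenes, stood at a mean of only 18.4 CPM per kilobase and its level is uncertain.

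**Figure D3:**
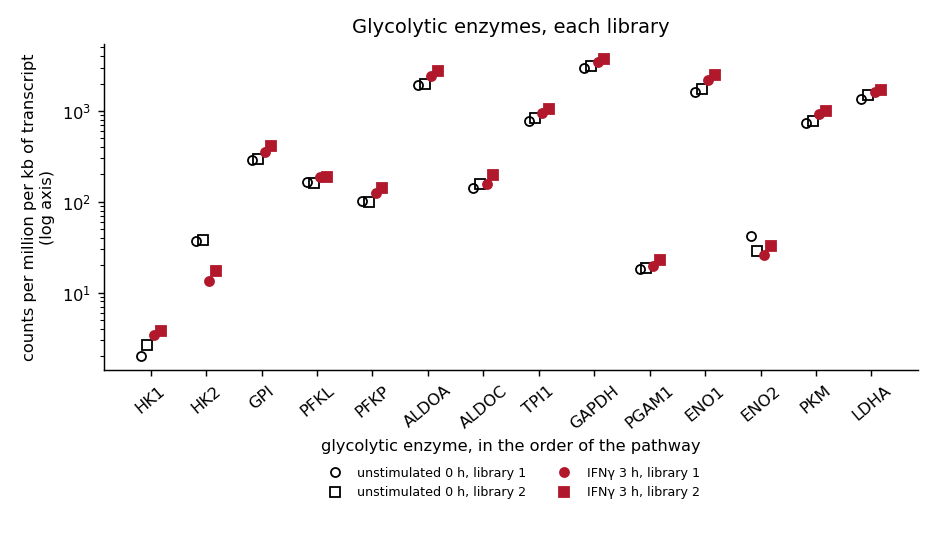
Level of the 14 glycolytic enzymes in the order of the pathway, as CPM per kilobase of canonical transcript (y axis, log scale) in each library. Open symbols are unstimulated and filled symbols IFNγ libraries; circles are library 1 and squares library 2. HK2 is the enzyme whose filled symbols lie clearly below the open ones. For the enzymes other than HK2 and ENO2 both lie above, narrowly so for ALDOC, and of these only ENO1, ALDOA and PFKP passed.

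**Figure D4:**
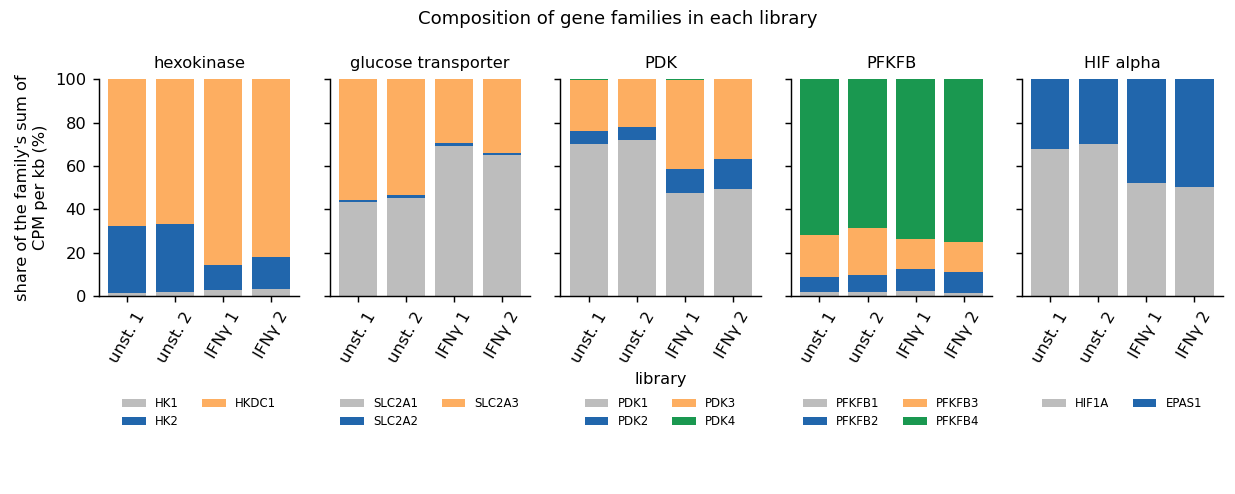
Share (y axis, %) of each gene in the sum of its family's CPM per kilobase, in 2 unstimulated (unst.) and 2 IFNγ libraries. The trend of GC content and length was not removed from the shares. HK2, SLC2A3, PDK1, PFKFB3 and HIF1A hold a smaller share of their families in both IFNγ libraries than in both unstimulated ones.

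Genes of the same pathways outside the 50 were read from lists written alongside them. Over all tested genes 11% passed lower and 9.02% passed higher. Of 16 other HIF pathway genes 15 were tested, and only CITED4 rose (log2 fold change 1.71, adjusted p = 0.00996) and SIAH2, named after its value was seen, fell (-0.96, adjusted p = 0.0105). CITED4 encodes an interactor of the coactivators CBP and p300, and SIAH2 a ubiquitin ligase of the prolyl hydroxylases. Of 30 other hypoxia-linked targets 25 were tested, 8 of which fell and 4 rose, with a median log2 fold change of -0.32. The largest falls were those of HILPDA (-2.68, adjusted p = 0.000379), CCNG2 (-2.35, adjusted p = 0.000448), FUT11 (-2.18, adjusted p = 0.00267), DDIT4 (-1.99, adjusted p = 0.000469) and BHLHE40 (-1.81, adjusted p = 0.000351). HILPDA acts on lipid droplets, CCNG2 and DDIT4 restrain growth, FUT11 is a fucosyltransferase and BHLHE40 is a clock repressor. The genes that rose, named after their values were seen, were HMOX1 (1.03, adjusted p = 0.00384), KLF10 (0.76, adjusted p = 0.0119), KDM6B (0.54, adjusted p = 0.0495) and SPAG4 (0.52, adjusted p = 0.0307). Leaving out 1 library ended the call for KDM6B (second unstimulated, adjusted p = 0.162, or first IFNγ, 0.139), SPAG4 (second unstimulated, 0.114, or second IFNγ, 0.0554) and KLF10 (first unstimulated, 0.0536). With the trend of GC content and length removed KDM6B (0.31, adjusted p = 0.0907) and SPAG4 (0.25, adjusted p = 0.17) did not pass.

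Of 25 other glycolysis genes 18 were tested, 3 of which rose and 0 fell, with a median log2 fold change of 0.25. Over all tested genes 9.02% rose and 11% fell. At an unadjusted p under 0.05 edgeR's test gave 1 lower gene of the list, LDHB (named after its value was seen), and DESeq2 called it. PGK1, the kinase that makes the first ATP of glycolysis, rose by 0.42 (adjusted p = 0.0346), and TIGAR, a bisphosphatase that restrains glycolysis, rose by 1.35 (adjusted p = 0.0165). The fructose transporter SLC2A5, named after its value was seen, rose by 0.43 (adjusted p = 0.0316). PGK1 also passed with the trend of GC content and length removed (0.61, adjusted p = 0.00675), but not without the first unstimulated library (0.36, adjusted p = 0.16) or the second IFNγ library (0.35, adjusted p = 0.133). SLC2A5 passed only when the first IFNγ library was the one left out (adjusted p = 0.0471, against 0.0884 to 0.151 for the others), and did not pass with that trend removed (0.26, adjusted p = 0.109). All 25 genes of the tricarboxylic acid cycle and pyruvate entry were tested. Of these 2 fell, SUCLA2 (-1.07, adjusted p = 0.0112) and DLAT (-0.55, adjusted p = 0.0432, named after its value was seen), against 11% of all tested genes. The count that rose was 0, against 9.02%, and the median log2 fold change was 0.02. At an unadjusted p under 0.05 edgeR's test gave 2 higher genes of this list and DESeq2 called 0. The call for DLAT was lost without the second unstimulated library (-0.36, adjusted p = 0.179) or the first IFNγ library (-0.44, adjusted p = 0.107), and with the trend of GC content and length removed (-0.25, adjusted p = 0.227).

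Across the 14445 tested genes with a canonical transcript, GC content and log2 fold change were correlated (Spearman rho = 0.44), and the part of GC content in the changes of single genes was not tested beyond removing this trend. Median GC content was 54.3% for the glycolytic enzymes, 44.4% for the regulatory targets and 48.5% for all tested genes. With that trend removed 1 enzyme passed higher (LDHA) and 1 lower (HK2). Over the regulatory targets the median was -0.59 in that fit, and 11 passed lower and 1 higher. KDM3A (-2.29, adjusted p = 7.13e-05), ANKRD37 (-3.65, adjusted p = 0.0012) and HK2 (-1.36, adjusted p = 0.0012) fell in that fit as well.

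**Figure D5:**
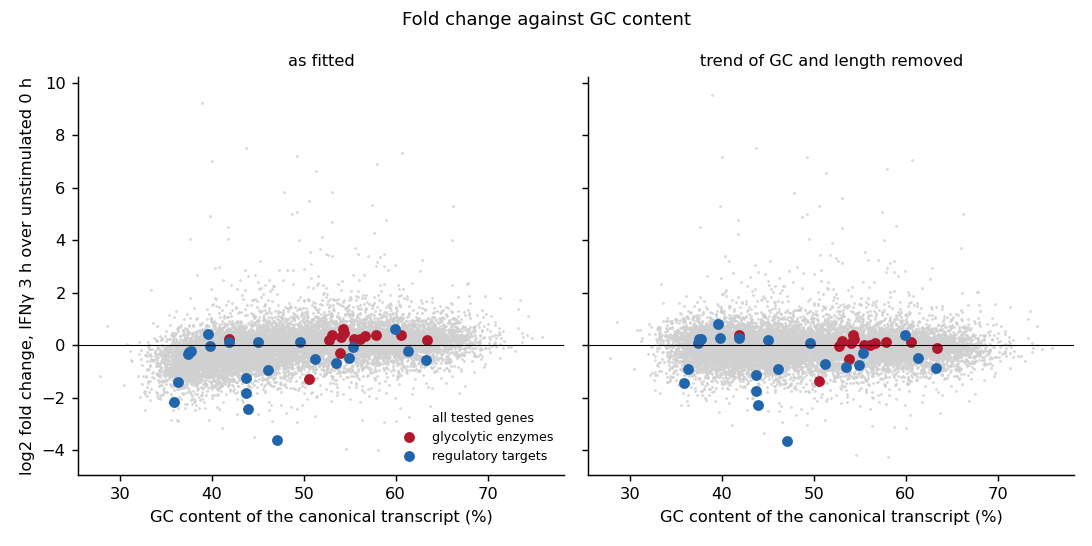
Log2 fold change (y axis) against GC content of the canonical transcript (x axis, %) for 14445 tested genes in grey, the glycolytic enzymes in red and the regulatory targets in blue. The left panel shows the fit as reported and the right panel the fit with the trend of GC content and length removed, in which Spearman's rho was -0.02 and 9 of the 14 red points lie above 0. HK2 (-1.36) and ENO2 (-0.53) are the lowest of them, and HK1 and LDHA (both 0.39) the highest.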

How the data were processed

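RNA-seq was performed on 4 Caco-2 libraries, 2 per group. The table that the authors deposited holds unnormalized read counts, with genes named by Ensembl identifier. The submitters' processing notes name HISAT 0.5.1 and HTSeq 0.6.1p1. The genome build, annotation and handling of strand were not given in the sources used here, so genes that overlap on opposite strands are uncertain. Genes that overlap on the same strand are uncertain as well, since a read can match both. Exons of 20 of the 50 genes overlap no other annotated gene. Depth was 7171455 to 10365346 counts per library. Of the 37515 genes 8158 had 0 counts in all libraries, and 96.5% of identifiers were paired with a symbol through the reference tables.

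Groups were compared with the quasi-likelihood test of edgeR 4.0.16 under R 4.3.3 (TMM scaling, edgeR's default filter on low counts, no block). P-values were adjusted by the Benjamini-Hochberg method over the 14820 tested genes, and a gene passed at an adjusted p under 0.05. The size threshold, where used, was an absolute log2 fold change above 1. The standard error of a gene was obtained from its F statistic, as the ratio of the log2 fold change to that statistic's square root. CPM values used the TMM-scaled library sizes. Levels per kilobase used the length of the canonical transcript in GENCODE mapped to GRCh37. Family shares used HK1, HK2 and HKDC1 for the hexokinases, and the genes plotted for the others. The GC and length trend was removed from each library by a loess fit with a span of 0.5. DESeq2 1.42.0 was an alternative. Scripts were tested on simulated data.

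The members and the lists were chosen with earlier results of these data known. Every member is accounted for: those that passed and the genes of HIF and oxygen sensing with each library's value, the others with their fold change. Other genes of a list are named where they passed with an absolute log2 fold change above 1, at most 5 per list, as are PGK1 and ARNT in any case. A few more are named as chosen after their values were seen, and markers serve as checks. The alternatives are given at the end, and the restriction to genes without overlapping exons was added after the data were seen. No list was tested as a set. Promoter windows came from RefSeq.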

Additional observations from a re-analysis of the deposited data

How the results depend on the processing

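Precision was limited by 2 libraries per group. None of the 22 genes that passed reversed under any alternative, while 14 of the 28 that did not pass did in at least 1. Leaving out a library left a group with 1, which was assumed to vary as the others do. The causes of the changes below were not tested, except that a stricter threshold can only lower a count.

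Beside 15 genes lower and 7 higher, an absolute log2 fold change above 1 left 9 and 0, and an adjusted p under 0.01 left 11 and 2. The count of 7 was 13 with no filter and 2 to 8 as 1 library was left out in turn. Libraries share only a number, and their deviations correlated (r = 0.415) in 2 pairs. With the replicate block 18 genes were higher and 20 lower, and with the GC and length trend also removed 11 and 19.

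The median over all 50 genes was 0.04. It was -0.0067 with library size only, -0.14 over the 20 genes without overlapping exons (an alternative added after the data were seen) and -0.16 to 0.030 with 1 library left out. The median of the enzymes (0.28) was 0.32 with upper quartile scaling, 0.24 with library size only, 0.20 without overlapping exons, 0.20 to 0.38 with 1 library left out, and 0.0916 and 0.0923 with the GC and length trend removed, without and with the replicate block. The median of the regulatory targets (-0.42) was -0.591 and -0.594 in those fits and -0.23 without overlapping exons.

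Of genes that did not pass, 9 reversed with the trend removed, and had nearly the same values with the block added. They were HIF1A (0.055 and 0.054), EGLN2 (-0.17 and -0.16), BNIP3L (0.10 and 0.099), P4HA1 (0.262 and 0.261), PLOD2 (0.229 and 0.226), ERO1A (0.231 and 0.228), PFKL (-0.115 and -0.113), ALDOC (-0.0010 and -0.0057) and PGAM1 (-0.0081 and -0.011). Upper quartile scaling gave 0.022 for P4HA1. With 1 library left out the log2 fold change crossed 0 for EGLN2 (-0.25 to 0.69), EGLN3 (-0.42 to 0.51), ADM (-0.23 to 0.055), CA12 (-0.092 to 0.36), BNIP3 (-0.040 to 0.27), P4HA1 (-0.11 to 0.080) and ENO2 (-0.50 to 0.016).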
